A study of Homo sapiens with 6 samples.

Results

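The transcripts described here encode complement, Fc and Fc-like receptors of B cells. The members were chosen by gene symbol from a fixed set of 10 names, and 9 of the 10 had a row among the 15802 genes of the deposited table. CR1, the receptor for the C3b and C4b fragments of complement, is not analysed here. Poly(A)-selected RNA came from SC1, an established human line of B-cell lymphoma, which received either 1 nM bryostatin (3 libraries) or DMSO, the solvent (3 libraries). Bryostatin, a marine natural product, occupies the site of protein kinase C at which diacylglycerol normally acts. The time of treatment was not found in the labels. All libraries are of this 1 line, and nothing states that replicates came from separate cultures, so the p-values cover the spread among these libraries alone, and that spread may be technical. Libraries are named bryostatin 1 to 3 and DMSO 1 to 3.

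These receptors let a B cell read antigen that is already coated with antibody or complement. CR2, also called CD21, binds C3d on coated antigen and joins CD81 in a co-receptor that lowers the threshold of the B-cell receptor. FCER2, or CD23, is a lectin that binds IgE with low affinity and also binds CR2, and FCMR binds IgM. FCGR2B is the inhibitory IgG receptor of B cells and recruits the phosphatase SHIP-1. The FCRL proteins resemble Fc receptors and carry activating or inhibitory tyrosine motifs in their tails. FCRLA stays inside the cell, where it binds immunoglobulin.

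The 250 bases before the RefSeq transcription start are shown for the 4 members that rose with bryostatin, and for FCRL2, the nearest relative of FCRL1 on the chromosome, which did not pass the test. They come from RefSeq on GRCh38.p14, are written 5′ to 3′ on the strand of the gene, and lie at chr1:207454078-207454327 (CR2, plus strand), chr1:206923197-206923446 (FCMR, minus strand), chr19:7702132-7702381 (FCER2, minus strand), chr1:157820121-157820370 (FCRL1, minus strand) and chr1:157777133-157777382 (FCRL2, minus strand). Capitals mark matches, on either strand, to TGANTCA (AP-1, widened to any middle base N), TGGGAA (RBPJ) or GAGGAA (PU.1).
CR2: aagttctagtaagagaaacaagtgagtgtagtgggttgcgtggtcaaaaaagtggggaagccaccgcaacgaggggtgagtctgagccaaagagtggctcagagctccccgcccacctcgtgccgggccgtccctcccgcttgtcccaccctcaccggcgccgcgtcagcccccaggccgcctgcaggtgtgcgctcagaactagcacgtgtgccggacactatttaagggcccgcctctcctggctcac
FCMR: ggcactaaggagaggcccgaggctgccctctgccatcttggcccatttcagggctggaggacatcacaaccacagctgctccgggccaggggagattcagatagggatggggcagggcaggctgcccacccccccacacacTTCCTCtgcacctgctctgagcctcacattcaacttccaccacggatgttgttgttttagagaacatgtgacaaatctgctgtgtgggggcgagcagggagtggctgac
FCER2: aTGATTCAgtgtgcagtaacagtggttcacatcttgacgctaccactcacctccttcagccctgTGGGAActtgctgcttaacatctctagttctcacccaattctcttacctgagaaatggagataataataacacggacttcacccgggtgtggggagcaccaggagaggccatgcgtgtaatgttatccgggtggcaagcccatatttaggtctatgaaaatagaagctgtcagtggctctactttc
FCRL1: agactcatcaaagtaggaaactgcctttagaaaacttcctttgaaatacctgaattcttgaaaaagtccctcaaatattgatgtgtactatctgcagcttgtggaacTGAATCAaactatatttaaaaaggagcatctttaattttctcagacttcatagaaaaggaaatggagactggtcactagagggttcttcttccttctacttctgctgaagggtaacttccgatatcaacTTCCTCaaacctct
FCRL2: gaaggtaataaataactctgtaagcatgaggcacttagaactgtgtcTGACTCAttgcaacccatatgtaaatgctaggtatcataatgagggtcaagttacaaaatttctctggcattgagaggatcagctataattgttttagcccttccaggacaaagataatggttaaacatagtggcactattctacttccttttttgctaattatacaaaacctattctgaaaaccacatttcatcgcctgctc
Promoters were in the RefSeq table for 10 of 10 members. A match to the widened AP-1 letters stood in 5 of them (FCER2, FCRL1, FCRL2, FCRL3 and FCGR2B), against 6.57% of all 35116 promoter windows of the same length. These read TGATTCA in FCER2 and FCRL3, TGAATCA in FCRL1 and FCGR2B, and TGACTCA in FCRL2. Only the FCRL2 match has the C or G of the AP-1 consensus in the middle. The RBPJ letters stood in 3 (FCER2, FCRL3 and FCRL5), against 20.9% of all windows, and the PU.1 letters in 3 (FCRL1, FCRLA and FCMR), against 23.6%. The octamer ATTTGCAT stood in 1 (CR1), against 1.63%, and the NF-kB consensus in 2 (FCRL3 and FCGR2B), against 9.96%. The EBF1 palindrome stood in 0, against 1.06%. The NF-kB and RBPJ matches in FCRL3 overlapped each other, and no other matches overlapped. The CR2 window held none of these letters. TGANTCA matches stood both before genes that rose and before FCRL2 and FCRL3, which did not pass the test. A match is a stretch of letters and was not tested for binding.

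The libraries held 18162161 to 18915394 expected counts, so that 1 count was 0.0529 to 0.0551 CPM (counts scaled to a library of 1000000) before TMM scaling. Bryostatin 1 stood apart from its group. Its counts differed from those of bryostatin 2 and 3 with a mean chi-square per gene of 41.2 and 37.7, against 2.93 between bryostatin 2 and 3 and 2.73 to 4.40 between DMSO libraries. Bryostatin 2 and 3 were nearer to the DMSO libraries, at 16.3 to 19.4, than to bryostatin 1. The fold change of each member is therefore also given without bryostatin 1. That library was picked from these same data, so adjusted p values without it may be too small. The B-cell label was met by the markers, with 8 of 8 tested and a summed level of 4637 to 4862 CPM in DMSO and 6734 to 7040.4 CPM in bryostatin libraries. Of these 8 markers, 5 changed. The summed level of T and NK markers (9 of 13 in the table) was 3.12 to 3.70 CPM in DMSO and 1.98 to 3.49 CPM with bryostatin, mostly from CD247, and CD3E, CD4, CD8A and NCAM1 had under 3 counts per library on average. Myeloid markers (10 of 12) summed to 18.2 to 29.5 and 12.2 to 24.0 CPM, mostly from S100A9 and S100A8, with CSF1R, CD163 and LYZ under 3 counts. Follicular dendritic cells, which also carry CR2, FCER2 and FCGR2B, had 7 of 8 markers in the table at a summed 2.01 to 3.53 and 1.60 to 2.43 CPM, with FDCSP and VCAM1 under 3 counts. Erythroid markers (2 of 6) summed to 0.317 to 0.623 and 0.0539 to 0.330 CPM, and epithelial, stromal or endothelial markers (10 of 10) to 8.18 to 10.6 and 5.43 to 8.19 CPM. Few of these other markers had enough counts to be tested. They were 1 T and NK, 2 myeloid, 1 follicular dendritic, 0 erythroid and 5 epithelial, stromal or endothelial markers. None of those tested changed.

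Bryostatin raised the transcripts of CR2, FCMR, FCER2 and FCRL1. All 9 members in the table passed the filter on low counts, 4 rose, 0 fell and 5 did not pass (edgeR quasi-likelihood test, Benjamini-Hochberg over 11613 genes, threshold 0.05). Of all genes tested, 4.56% passed, 3.72% as higher and 0.835% as lower, against 44.4% of the members as higher. The median log2 fold change was 0.52 over the 9 members and -0.0014 over all genes tested. In 6 members every bryostatin library lay above every DMSO library, as in 15.3% of all genes tested, and in 1 every bryostatin library lay below, as in 12.5% (27.8% in either direction). Without bryostatin 1 the test called 9 of 9 members, 7 higher and 2 lower, against 27.0% of all genes (13.8% higher and 13.2% lower). The one member lower in every library was FCGR2B, at an unadjusted edgeR p of 0.0112. The members were chosen with results of these data known, so the share is a description.

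**Figure D1:**
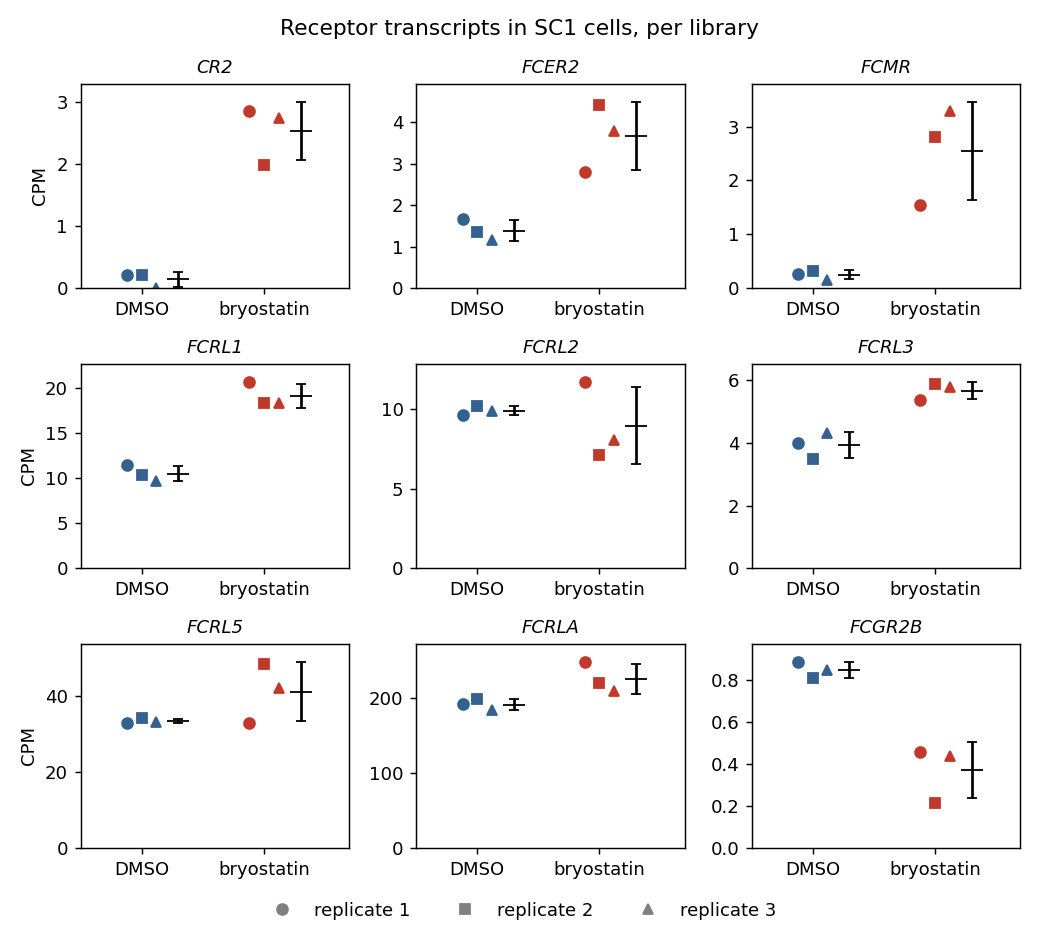
TMM-scaled CPM (linear axis from 0) of each receptor transcript in each DMSO library (blue) and bryostatin library (red). Marker shapes show replicate numbers, which were not treated as pairs, and black bars show mean ± SD (n = 3). The groups separate for CR2, FCMR, FCER2 and FCRL1, which passed the test, and for FCRL3, FCRLA and FCGR2B, which did not. For FCRL2 and FCRL5 bryostatin 1 lies away from the other bryostatin libraries.

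CR2 went from almost no reads to a low but countable level. Its expected counts were 4, 4 and 0 in DMSO 1, 2 and 3 and 50, 37 and 50 in bryostatin 1, 2 and 3. Every bryostatin library was far above every DMSO library, and bryostatin 1 was not apart from its group. In CPM this was 0.141 ± 0.122 against 2.53 ± 0.470 (SD, n = 3), or 4.10 ± 0.52 as a log2 fold change (SE, edgeR adjusted p = 0.00455). The fold rests on 8 counts in DMSO. The ratio of summed counts per library total was 17.4, with an exact 95% interval of 8.61 to 41.2 that, like the others here, covers counting error only. In bulk RNA, more cells with the transcript and more transcript per cell cannot be told apart. Without bryostatin 1 the log2 fold change was 4.01. CR2 passed in all 18 alternative settings and left-out libraries, with adjusted p up to 0.0354. On the log2(TPM + 1) scale its difference was 0.90, and that of FCMR 1.15, where the pseudocount of 1 is above the TPM of both genes in every DMSO library.

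FCMR, which stands on the same arm of chromosome 1, rose from a similarly low level. Its counts were 5, 6 and 3 in DMSO and 27, 52 and 60 in bryostatin 1, 2 and 3. The groups did not overlap, and bryostatin 1 was the lowest of the treated libraries. FCMR rose by 3.34 ± 0.43 on the log2 scale, from 0.247 ± 0.0829 to 2.55 ± 0.905 CPM (edgeR adjusted p = 0.00457), and by 3.59 without bryostatin 1. The ratio of summed counts was 10.1 (95% interval 5.83 to 19.0). FCMR passed in all 18 alternatives, with adjusted p up to 0.0439. The cytokine gene IL24 overlaps FCMR on the opposite strand, and it had 0 to 2 counts in any library, fewer than FCMR in each. A pseudogene, RPL13AP8, also lies within FCMR and is not analysed here.

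FCER2 rose less steeply, and its call was not stable. It had 32, 25 and 22 counts in DMSO 1, 2 and 3 and 49, 82 and 69 in bryostatin 1, 2 and 3. The groups did not overlap, and bryostatin 1 was again the lowest treated library. The log2 fold change was 1.398 ± 0.25 (1.39 ± 0.252 against 3.67 ± 0.816 CPM, edgeR adjusted p = 0.0194). It was 1.56 without bryostatin 1. Leaving out bryostatin 2 or 3 gave an edgeR adjusted p of 0.0696 or 0.0739, and leaving out DMSO 1, 2 or 3 gave 0.0667, 0.111 or 0.127. The log2 fold change in these 5 fits was 1.24 to 1.55. The edgeR adjusted p was 0.0605 with the replicate number as a block, a fit that pairs libraries by number. The labels state no such pairing.

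FCRL1 was the one rising member with ample reads. This receptor carries activating motifs and enhances signalling of the B-cell receptor. Its level was 11.4, 10.3 and 9.72 CPM in DMSO 1, 2 and 3 and 20.6, 18.4 and 18.3 CPM in bryostatin 1, 2 and 3. All treated libraries were above all controls and close together. FCRL1 rose by 0.86 ± 0.11 on the log2 scale, or 1.82-fold with a 95% interval of 1.53 to 2.17 (edgeR adjusted p = 0.00455). The log2 value without bryostatin 1 was 0.80. FCRL1 passed in all 18 alternatives, with adjusted p up to 0.0445.

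**Figure D2:**
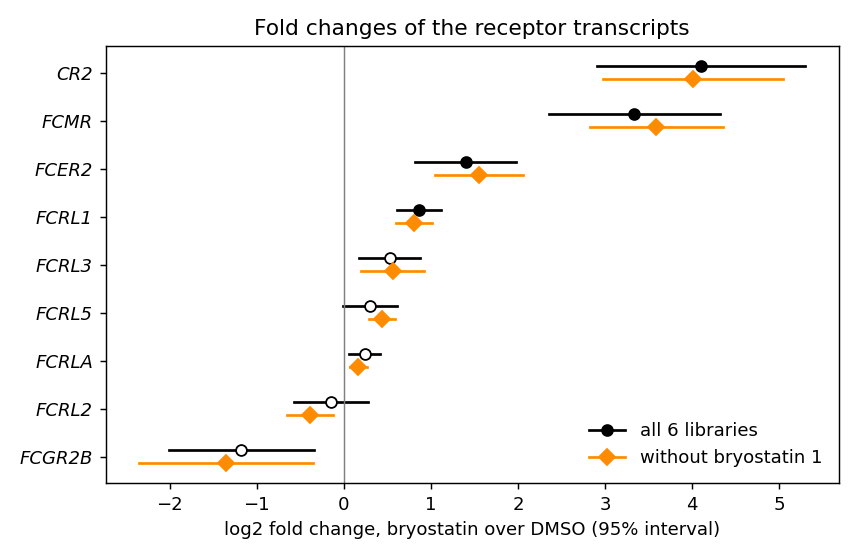
Log2 fold change (bryostatin over DMSO) with its 95% interval for the 9 receptor transcripts, from all 6 libraries (black circles) and without bryostatin 1 (orange diamonds), with filled symbols for an edgeR adjusted p under the threshold of 0.05. With all libraries 4 symbols are filled, and without bryostatin 1 all 9 are.

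The inhibitory receptor FCGR2B was lower in every bryostatin library but did not pass the test. Its counts were 17, 15 and 16 in DMSO and 8, 4 and 8 in bryostatin 1, 2 and 3. The groups did not overlap, at very few reads. The log2 fold change was -1.18 ± 0.36 (0.845 ± 0.0376 against 0.371 ± 0.135 CPM, edgeR adjusted p = 0.122), and -1.36 without bryostatin 1 (adjusted p = 0.0410). The ratio of summed counts was 0.425 (95% interval 0.239 to 0.729). FCGR2B is also the member whose reads are hardest to place. Of the 100-base windows of its longest coding transcript in GENCODE release 29, 29.2% also stood in transcripts of FCGR2A or FCGR2C, with 27.98% in FCGR2C and 3.27% in FCGR2A, some of them in both. FCGR2A had at most 3 counts in any library and was not tested, and FCGR2C is not analysed here. How reads were split between these genes cannot be seen from the table, so the FCGR2B values are uncertain. An antisense transcript, AL451067.1, also overlaps FCGR2B and is not analysed here. No such window of the other 8 members in the table was shared with another gene.

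FCRL2, FCRL3 and FCRL5, which carry inhibitory motifs in their tails, and the intracellular FCRLA did not pass. FCRL3 was 3.997, 3.50 and 4.33 CPM in DMSO and 5.37, 5.87 and 5.77 CPM in bryostatin libraries. These groups did not overlap, and the log2 fold change was 0.52 ± 0.15 (edgeR adjusted p = 0.108), or 0.56 without bryostatin 1 (adjusted p = 0.0194). A long noncoding transcript, FCRL3-AS1, overlaps FCRL3 and is not analysed here, and whether reads were counted by strand is not given in the labels.

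FCRLA was 191, 198 and 183 CPM in DMSO and 247, 220 and 209 CPM in bryostatin libraries. The groups did not overlap, but the shift was small. The fold was 1.18, with a 95% interval of 1.04 to 1.34, and the edgeR adjusted p was 0.144. Without bryostatin 1 the log2 fold change was 0.17 (adjusted p = 0.00959).

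FCRL5 and FCRL2 were the members in which bryostatin 1 went its own way. FCRL5 was 32.9, 34.1 and 33.1 CPM in DMSO and 32.8, 48.2 and 42.0 CPM in bryostatin 1, 2 and 3. Bryostatin 1 sat at the control level, and the other treated libraries were above it. The log2 fold change was 0.30 ± 0.14 with all libraries (95% interval -0.01 to 0.61, edgeR adjusted p = 0.289) and 0.43 ± 0.07 without bryostatin 1 (adjusted p = 9.57e-05). FCRL2 was 9.65, 10.2 and 9.88 CPM in DMSO and 11.7, 7.11 and 8.08 CPM in bryostatin 1, 2 and 3. Here bryostatin 1 was above every control and the other treated libraries were below. The log2 fold change was -0.15 ± 0.19 (95% interval -0.58 to 0.28, edgeR adjusted p = 0.721) and -0.39 ± 0.13 without bryostatin 1 (adjusted p = 0.0269). What sets bryostatin 1 apart was not tested.

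Per transcript length, FCRLA dominated the group. In the deposited TPM, which allow levels of different genes to be compared, FCRLA was at 165 ± 2.36 in DMSO and 182 ± 7.02 with bryostatin (SD, n = 3). It made up 80.8 to 85.3% of the summed TPM of the 9 members in a library. The order in DMSO was FCRLA, FCRL5 at 12.8 ± 0.111, FCRL2 at 6.48 ± 0.272, FCRL1 at 5.14 ± 0.295, FCER2 at 1.62 ± 0.290, FCRL3 at 1.55 ± 0.161, FCGR2B at 0.980 ± 0.327, FCMR at 0.207 ± 0.101 and CR2 at 0.0600 ± 0.0520 TPM. Of these neighbours, only FCER2 and FCRL3 overlapped in their libraries.

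With bryostatin the order below FCRLA was FCRL5 at 14.98 ± 4.66, FCRL1 at 9.82 ± 0.769, FCRL2 at 5.39 ± 0.983, FCER2 at 4.01 ± 1.22, FCRL3 at 2.19 ± 0.409, FCMR at 1.72 ± 0.657, CR2 at 0.980 ± 0.145 and FCGR2B at 0.450 ± 0.130 TPM. Here FCRL5 and FCRL1, FCRL2 and FCER2, FCRL3 and FCMR, and FCMR and CR2 overlapped. FCGR2B moved from above FCMR and CR2 to below both, at 4 to 17 expected counts per library. Its TPM did not follow its counts, with 0.32 TPM at 8 counts in bryostatin 1 and 0.45 TPM at 4 counts in bryostatin 2. The place of FCGR2B in the order is therefore uncertain. CR2, the least abundant member in DMSO, was then the second least abundant, at the mean TPM that FCGR2B had in DMSO.

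**Figure D3:**
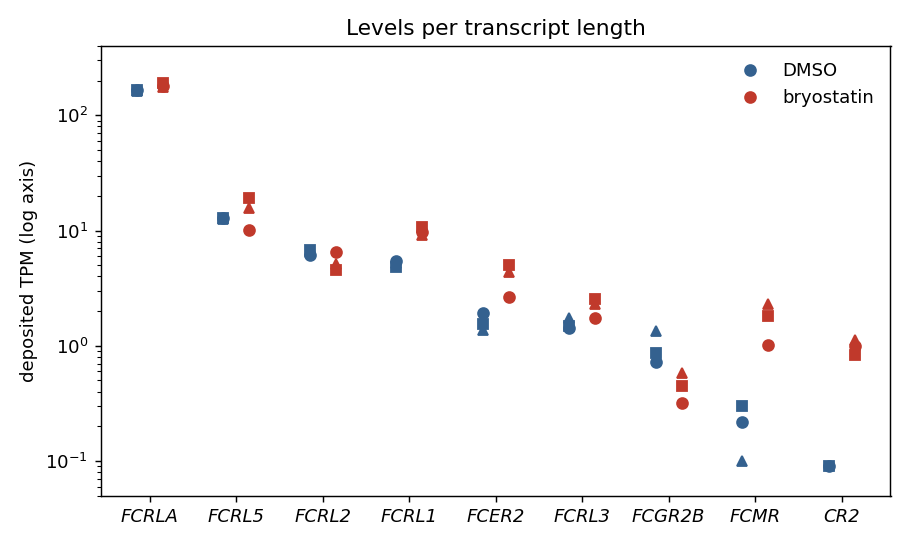
Deposited TPM (log axis) of the 9 receptor transcripts in each DMSO library (blue) and bryostatin library (red), ordered by the DMSO mean. FCRLA lies near 165 TPM in DMSO, and CR2 and FCMR lie lowest in DMSO. CR2 in DMSO 3 was 0 and is not drawn.

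FCRL1 rose, while its neighbour FCRL2 did not pass the test. On GRCh38 the FCRL genes stand on the minus strand of chromosome 1, with FCRL5 at 157513377 to 157552515, FCRL3 at 157676481 to 157700956, FCRL2 at 157745733 to 157777132 and FCRL1 at 157794403 to 157820120, so that 17271 bases separate FCRL2 from FCRL1. The TPM of FCRL1 divided by that of FCRL2, a value free of library scaling, was 0.872, 0.716 and 0.799 in DMSO 1, 2 and 3 and 1.5, 2.35 and 1.77 in bryostatin 1, 2 and 3. All treated libraries were above 1 and all controls below it, bryostatin 1 included. The difference was 1.21 on the log2 scale (exact permutation test, two-sided, p = 0.1, the smallest that 3 against 3 allows). This ratio was chosen after its values were seen, so the p-value is no support for the difference. TPM also carry a transcript length estimated in each library. The FCRL1 length implied by count and FPKM was 3249, 3230 and 2927 bases in DMSO 1, 2 and 3. It was 2740, 2639 and 3036 bases in bryostatin 1, 2 and 3. Expected counts carry no such length. For FCRL1 they were 220, 192 and 184 in DMSO and 361, 341 and 333 with bryostatin. For FCRL2 they were 186, 190 and 187 in DMSO and 205, 132 and 147 with bryostatin. By counts FCRL1 was thus above FCRL2 in DMSO 1 and 2 as well. The edgeR log2 fold changes, from counts, were 0.86 for FCRL1 and -0.15 for FCRL2. The share of the 1.21 that is due to length was not tested. FCRL4, between FCRL5 and FCRL3, had at most 1 count in any library, and CD5L, on the far side of FCRL1, also had at most 1.

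**Figure D4:**
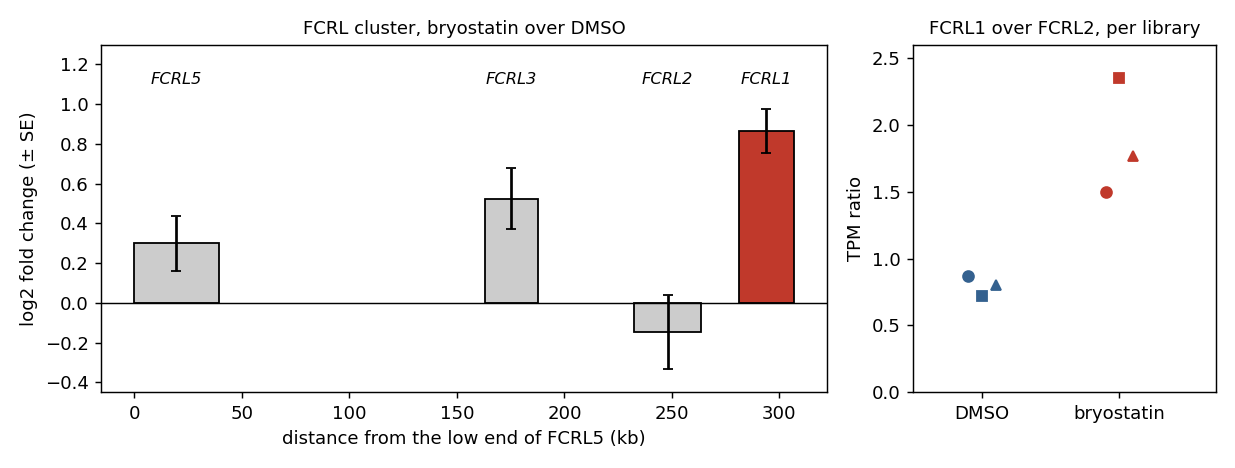
Left, log2 fold change (± SE, bryostatin over DMSO) of the 4 FCRL genes drawn at their place and length along the chromosome in kb, with red for the one that passed the test. Right, FCRL1 TPM over FCRL2 TPM in each library, from 0.716 to 0.872 in DMSO and from 1.5 to 2.35 with bryostatin.

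The other members lie elsewhere on chromosome 1, except FCER2, which is on chromosome 19 (7688776 to 7702131, minus strand). FCGR2B (161647243 to 161678654) and FCRLA (161707229 to 161714352) are on the plus strand. FCMR (206903317 to 206923196, minus strand) and CR2 (207454328 to 207489892, plus strand) lie farther along. Neighbouring genes that were tested did not pass. For TRAPPC5, a trafficking subunit 1073 bases from FCER2, the log2 fold change was 0.10 ± 0.17 (edgeR adjusted p = 0.790), which was of either sign among the alternatives (-0.12 to 0.21). FCRLB, a relative of FCRLA 7192 bases away, was 1.198 ± 0.0643 CPM in DMSO and 1.79 ± 0.362 CPM with bryostatin (log2 fold change 0.58 ± 0.25, edgeR adjusted p = 0.262). PIGR, which carries IgA and IgM across epithelia and stands 5326 bases from FCMR, was too low to test, at 0.106 ± 0.0548 and 0.492 ± 0.296 CPM.

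Some genes of the CR2 co-receptor and its signalling rose. Among the 7 tested genes of this list there were 3 that rose, 0 that fell and 4 that did not pass. Their median log2 fold change was 0.22. Over all genes tested, 3.72% rose and 0.835% fell. IFITM1, a small membrane protein also called Leu-13 that associates with CD81, rose by 1.93 (edgeR adjusted p = 0.00813). The lipid kinase subunit gene PIK3CD rose by 0.64 (adjusted p = 0.00735) and the exchange factor gene VAV1 by 0.43 (adjusted p = 0.0220). CD81, the tetraspanin of the complex, was 313 ± 14.1 CPM in DMSO and 363 ± 48.5 CPM with bryostatin (log2 fold change 0.22 ± 0.10, adjusted p = 0.283). On the TPM values 1 of the list passed, and with DMSO 1, 2 or 3 left out 0, 1 or 0 did. Without any 1 of the DMSO libraries IFITM1 and VAV1 did not pass (adjusted p up to 0.0669 and 0.164), nor did VAV1 without bryostatin 3, nor PIK3CD without DMSO 1 or 3 (up to 0.0654). IFITM1 has near relatives in sequence and its counts are uncertain.

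Other complement genes were mostly silent in this line. Of 35 listed, 27 were in the table and 7 passed the filter. Of these 7, 1 rose, against 3.72% of all genes tested, with a median log2 fold change of 0.06. The riser was ITGB2, the shared beta chain of the complement receptors CR3 and CR4, at 0.301 ± 0.126 CPM in DMSO and 6.30 ± 0.781 CPM with bryostatin (edgeR adjusted p = 1.99e-04). The alpha chains of CR3 and CR4 stayed near 0. ITGAM was at 0.0878 ± 0.0294 CPM in DMSO and 0.112 ± 0.101 CPM with bryostatin. ITGAX was at 0 and 0.0359 ± 0.0622 CPM. Other alpha chains were not in this list. For C5, a late complement component, the log2 fold change was 0.64 ± 0.25 (adjusted p = 0.214). Without bryostatin 1 the count was 2, in a fit that called 27.0% of all genes. Other Fc receptors were also sparse, with 3 of 17 tested and 1 higher. That was TRIM21, a cytosolic antibody receptor, with a log2 fold change of 0.78 ± 0.12 (adjusted p = 0.0107). It was not called from the TPM values, nor when bryostatin 3 or any 1 DMSO library was left out (adjusted p up to 0.0826). Without bryostatin 1 the count was 2. FCER1G, the signalling chain of activating Fc receptors, had at most 4 counts in a library.

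Of the signalling genes below FCGR2B and the FCRL receptors, 3 rose, 0 fell and the remaining 15 of the 18 tested did not pass. Their median log2 fold change was 0.09. Over all genes tested, 3.72% rose and 0.835% fell. PTPN6, or SHP-1, the phosphatase recruited by inhibitory motifs, rose by 2.92 ± 0.13, from 7.16 ± 1.13 to 54.1 ± 3.59 CPM (edgeR adjusted p = 2.37e-05), and passed in all 18 alternatives. CSK, a kinase that restrains SRC family kinases, rose by 0.39 ± 0.06 (adjusted p = 0.0122), with adjusted p up to 0.113 among the alternatives. INPP5D, which encodes SHIP-1, the lipid phosphatase that FCGR2B recruits, rose by 0.38 ± 0.08 (adjusted p = 0.0329). The call of INPP5D was lost in 10 of 18 alternatives, with adjusted p up to 0.279. The count of 3 was 1 without bryostatin 3 or any 1 DMSO library and 1 on the TPM values. It was 9 without bryostatin 1, where 27.0% of all genes were called, and 9 with quality weights.

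FCER2 is known to be induced through the interleukin-4 receptor and to be shed by ADAM10. Some of the genes listed with these routes rose, but ADAM10 did not pass the test with all libraries. The list was not split by whether a gene raises or lowers FCER2. A link to the FCER2 rise was not tested. The 12 tested genes held 7 that rose, 0 that fell and 5 that did not pass, with a median log2 fold change of 0.41. Over all genes tested, 3.72% rose and 0.835% fell. CD40, a receptor that cooperates with interleukin-4, rose by 1.18 ± 0.09 (edgeR adjusted p = 2.64e-04), and IL2RG, the common gamma chain, rose by 0.96 ± 0.10 (adjusted p = 0.00143). IL4R, the interleukin-4 receptor alpha chain, rose by 1.12 ± 0.13, from 14.6 ± 0.647 to 31.7 ± 5.22 CPM (adjusted p = 0.00362). These 3 passed in all 18 alternatives. IL21R rose by 1.66 ± 0.29 (adjusted p = 0.0167), with adjusted p up to 0.113 among the alternatives. The sheddase ADAM10 was 78.6 ± 0.588 CPM in DMSO and 86.0 ± 18.3 CPM with bryostatin (log2 fold change 0.13 ± 0.14, adjusted p = 0.677). Without bryostatin 1 it was 0.28 (adjusted p = 0.00207), and without bryostatin 2 it was -0.03. On the TPM values 3 of the list passed, with DMSO 1, 2 or 3 left out 3, 4 or 4 did, and with bryostatin 3 left out 4 did.

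NOTCH2 signalling is known to induce CR2 and FCER2 in B cells. No gene of that pathway list passed, against 4.56% of all genes tested, a share at which 0 of 12 is not unusual. NOTCH2 signalling itself, and any link to CR2 or FCER2 here, was not tested. Of 12 tested, 0 changed by edgeR and 1 by DESeq2 (NOTCH2). By edgeR 3 were below 0.05 before adjustment, as were 18.7% of all genes tested. The median log2 fold change was -0.05. NOTCH2 was 81.2 ± 3.58 CPM in DMSO and 52.6 ± 17.5 CPM with bryostatin (log2 fold change -0.63 ± 0.22, edgeR adjusted p = 0.172). Without bryostatin 1 its log2 fold change was -0.38, and it passed (adjusted p = 8.58e-05). The co-activator MAML2 was at 0.67 ± 0.20 (adjusted p = 0.117), and at 0.82 without bryostatin 1 (adjusted p = 0.00194). In all, 7 of the list changed without bryostatin 1, as did 27.0% of all genes. Of 18 B-lineage transcription factors, 4 rose, 2 fell and 12 did not pass, with a median of 0.14. Over all genes tested, 3.72% rose and 0.835% fell. NFKB2 rose by 0.72 ± 0.09 (adjusted p = 0.00312) and SPI1, which encodes PU.1, by 0.66 ± 0.09 (adjusted p = 0.00530). IRF4 fell by 0.68 and PRDM1 by 1.07 on the log2 scale (adjusted p = 0.00798 and 0.0123). Without any 1 of the DMSO libraries IRF4 and PRDM1 did not pass (adjusted p up to 0.0623 and 0.0846), nor did SPI1 without DMSO 1 or 3 (up to 0.0554). The count of 6 was 13 without bryostatin 1 and 1, 2 and 1 without DMSO 1, 2 and 3.

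**Figure D5:**
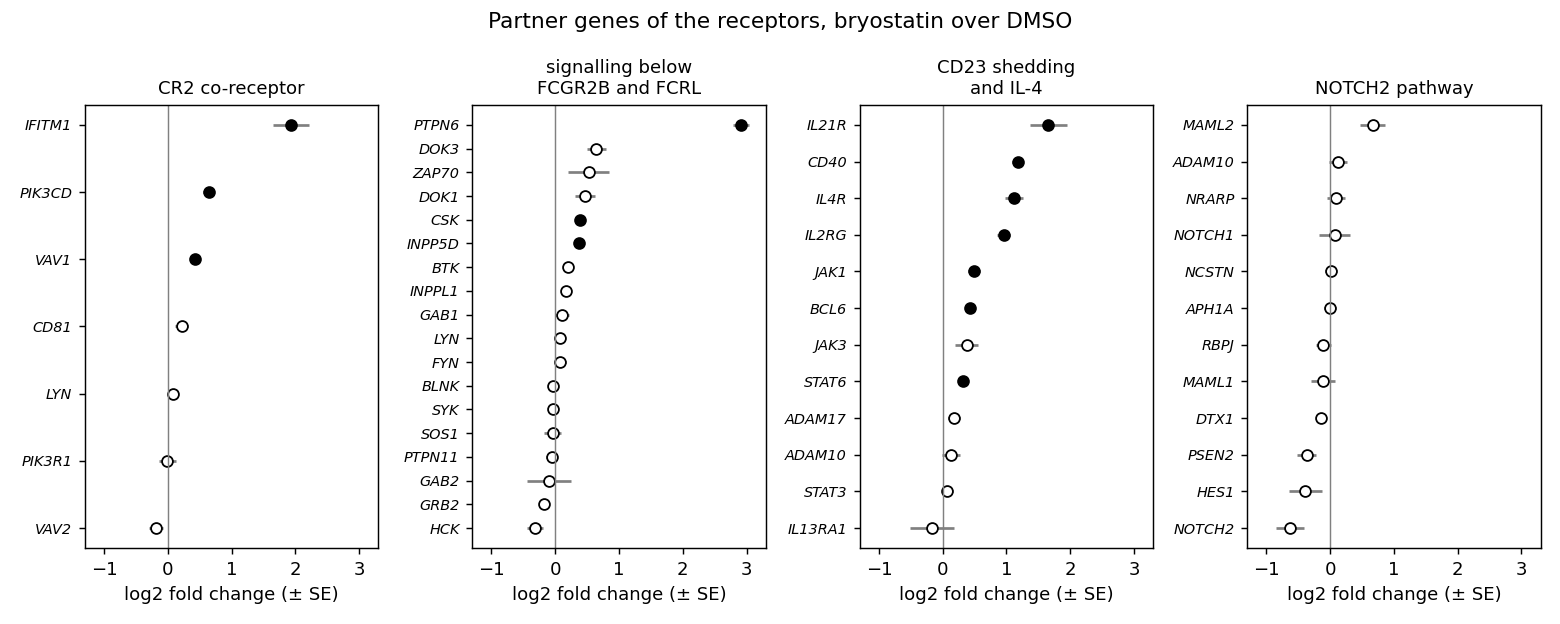
Log2 fold change (± SE, bryostatin over DMSO) of the tested genes of 4 partner lists, with filled circles for an edgeR adjusted p under the threshold of 0.05. PTPN6 stands at 2.92 and CD40 at 1.18. No circle of the NOTCH2 pathway is filled, and 4.56% of all genes tested passed.

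The genes most like the 2 most abundant members were found by the distance between their log2 CPM profiles over the 6 libraries, each set to its DMSO mean. For FCRLA these were CTDSP2, NSUN4, HLA-DRA, PHYH and RBM38, at distances of 0.0210 to 0.0749 against a median of 0.642 over all genes. For FCRL5 they included XYLT1, TRAPPC14, MIA3 and CHPF2, at 0.118 to 0.131 against 0.794. None of these 9 genes passed the test with all 6 libraries. They resemble the members in the size and the library pattern of a small shift.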

How the data were processed

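RNA-seq of SC1 cells was deposited by the authors as 1 table with an expected count, FPKM and TPM for each gene in each of 6 libraries. The submitters' processing notes name HISAT2 2.2.1, RSEM 1.2.28, DESeq2 1.40.2 and GRCh38. Annotation, strand use and treatment time are not given in the sources used here. All columns of per-sample values were mapped to a library by name.

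The deposited expected counts, of which 6.31 to 7.22% per library were not whole (tolerance 0.001), were rounded and tested with edgeR 4.0.16 (quasi-likelihood test, TMM scaling, filterByExpr) in R 4.3.3, with Benjamini-Hochberg adjustment over 11613 genes. SE is the absolute log2 fold change divided by the square root of F, and the 95% interval uses the t distribution on the total degrees of freedom. CPM are TMM-scaled. The deposited TPM were used for levels between genes, and TPM and FPKM for limma 3.58.1 fits with pseudocounts of 0.1 and 1. DESeq2 1.42.0 and left-out libraries were alternatives. The fits were tested on simulated data.

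Of 15802 gene IDs, 15767 matched RefSeq on GRCh38.p14, the source of names, positions and promoters. The members and lists were chosen with earlier results of these data known. Named genes are the members, the 2 of each list with the lowest p, the neighbours of members, the 5 genes nearest in profile to the 2 most abundant members, and PTPN6, CD81, ADAM10, NOTCH2, FCGR2A and FCGR2C. IFITM1, VAV1, INPP5D, IL4R, IL21R, IRF4, PRDM1, ITGAM, ITGAX and FCER1G were chosen after their values were seen. No 2 libraries were duplicates. Replicate numbers were not treated as pairs, as the labels state no pairing. Some genes were left out of the lists, marker sums and named genes and are not reported here.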

Additional observations from a re-analysis of the deposited data

How the results depend on the processing

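CR2, FCMR and FCRL1 passed in all 18 alternatives, and FCER2 in 11. The number of genes changed was 529, against 927 with DESeq2, 3040 with quality weights, and 138 to 3183 with 1 library left out, highest without bryostatin 1. The number of members changed was 4, against 9 with quality weights and 3 to 9 with 1 library left out. The order of members kept 36 of 36 pairs in each alternative except that of DMSO without replicate 1, with 35 (35 to 36 over left-out libraries). With the replicate number as a block, 338 genes and 3 members changed. Same-numbered libraries deviated from their group means with r of -0.212, -0.165 and 0.0311. Because each group of 3 was centred on its own mean, these values depend on each other and cannot exclude pairing. The split was 432 higher and 97 lower, 379 and 138 with library size only, 267 and 199 on log2(TPM + 0.1), 266 and 195 on log2(TPM + 1), 364 and 135 on log2(FPKM + 0.1), and 1609 and 1431 with quality weights. The log2(TPM + 0.1) scale put the median of all genes at -0.10. FCER2 had an adjusted p of 0.05005 by limma on log2(TPM + 1). The log2 fold change of TRAPPC5 was -0.073 with quality weights, -0.014 on log2(TPM + 0.1), -0.011 on log2(TPM + 1) and -0.12 to 0.21 with 1 library left out, negative without bryostatin 1. That of ADAM10 was -0.026 to 0.28 with 1 library left out, negative without bryostatin 2. The causes were not tested. Over all named genes and list counts set against each alternative, those above included, 735 values kept direction and side of the threshold, or a count within 1.5 times. Another 57 lost the call, 31 gained it, 36 list counts moved further, and 5, the TRAPPC5 and ADAM10 values above, changed sign. CR2, FCMR and FCGR2B rest on under 20 counts per library in at least 1 group, which limits their folds.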
